A study of Drosophila melanogaster with 8 samples.

Results

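The genes described are the proteasome subunit genes of Drosophila melanogaster, taken as every gene whose FlyBase symbol starts with Prosalpha or Prosbeta, or with Rpn or Rpt followed by a digit. This gave 48 genes of the 17468 gene IDs counted. Of these, 32 are the broadly expressed genes (7 alpha and 7 beta subunits of the core particle, 6 ATPases and 4 other subunits of the base, and 8 subunits of the lid), and 16 are testis-type copies, whose symbols end in T or R with or without a digit. Whole embryos were sequenced as RNA in 8 libraries, 2 for each of 4 groups. Each library came from pooled extracts of staged embryos (N = 100). At stage 5, the cellular blastoderm, and at stage 6-7, the gastrula, embryos homozygous for the zen[7] allele were set against embryos that carried zen[7] over TM3, ftz-lacZ. The balancer TM3 is a rearranged chromosome 3 with a lacZ transgene. All libraries therefore carry zen[7], wild-type embryos were not part of the comparison, and the genotypes also differ in having a balancer.

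The proteasome is the main protease for proteins tagged with ubiquitin. Its core particle is a barrel of alpha rings, which form the gate, and beta rings, which hold the active sites. The regulatory particle sits on the barrel: its base has a ring of Rpt ATPases that unfolds the substrate and Rpn scaffolds and ubiquitin receptors, and its lid removes the ubiquitin chain. Several subunits of the fly have a second gene copy that is used mainly in the male germ line. Embryos of these stages hold maternal RNA together with new transcripts of their own, and the counts do not tell these sources apart. In these bulk samples, fewer cells of a type and less RNA per cell cannot be told apart either.

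Gene counts summed to 29669956 to 37770105 per library, and 9360 genes were tested. The zen gene itself, whose product is a homeodomain factor needed for the amnioserosa, stood at 106 to 112 CPM in heterozygotes and 134 to 154 CPM in homozygotes at stage 5, and at 41.0 to 58.3 and 53.8 to 58.9 CPM at stage 6-7, so its RNA level does not separate the genotypes in the direction of a loss. All 5 amnioserosa markers (peb, tup, C15, ush, Doc2) were lower in homozygotes at both stages by edgeR. Cellularization markers summed to 2197 to 3152 CPM at stage 5 and 32.3 to 42.8 CPM at stage 6-7, with Sry-alpha listed at 0 in every library. Gastrulation markers summed to 697 to 757 and 706 to 820 CPM. Germ-plasm markers summed to 44.8 to 53.7 CPM at stage 5 and 32.6 to 38.2 CPM at stage 6-7. Follicle-cell markers of the adult ovary stood at 1.71 to 2.53 CPM, with 4 of 9 at 0. The first principal component (76% of the variance) ran from -56.2 to -42.1 at stage 5 and from 38.9 to 51.1 at stage 6-7. Replicate 1 of the stage 5 homozygotes and replicate 1 of the stage 6-7 heterozygotes stood apart from their partners on it. They were at -56.2 against -42.1 and at 38.9 against 48.8. The core medians and the directions of the core genes are therefore given with and without them. Changes of single genes are given with all libraries unless stated.

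The subunits of the core particle were the more abundant RNAs at stage 5. Per kb of exon, the median over the 13 measured core genes was 402 to 507 CPM in the 4 stage 5 libraries, while the median over the 18 regulatory-particle genes was 57.2 to 59.8 CPM. Within the core particle the levels were close together, with the highest gene 2.32 to 2.49 times the lowest. Within the regulatory particle they were spread out, with the highest 16.0 to 20.5 times the lowest. In the heterozygotes, Prosbeta6, a beta subunit without an active site, headed the order at 529 ± 28.1 CPM per kb (SD, n = 2 here and for the per-kb levels that follow). It was followed by Prosbeta4 at 480 ± 4.3 and by Prosbeta5, which carries the chymotrypsin-like site, at 452 ± 8.4. Prosbeta5 stood next to Prosalpha6 at 448 ± 17.2, and these neighbours did not differ beyond their spread.

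The regulatory genes did not all sit low. Rpn12, a lid subunit, stood at 363 ± 29.3 CPM per kb in the stage 5 heterozygotes. Rpt4, an ATPase of the base, stood at 321 ± 0.4, and Rpn6, the lid subunit that clamps the regulatory particle to the core, at 209 ± 13.3. These levels lay at or near those of Prosalpha4 (338 ± 10.4), Prosbeta2 (336 ± 3.3) and Prosalpha3 (223 ± 19.4), the 3 lowest core genes measured. The lowest subunit was Rpn8, the lid protein that pairs with the deubiquitinase Rpn11, at 21.3 ± 0.1 CPM per kb. Rpn11 itself stood at 48.6 ± 2.4, Rpt5 at 43.7 ± 4.3 and Rpn7 at 35.1 ± 0.1.

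**Figure D1:**
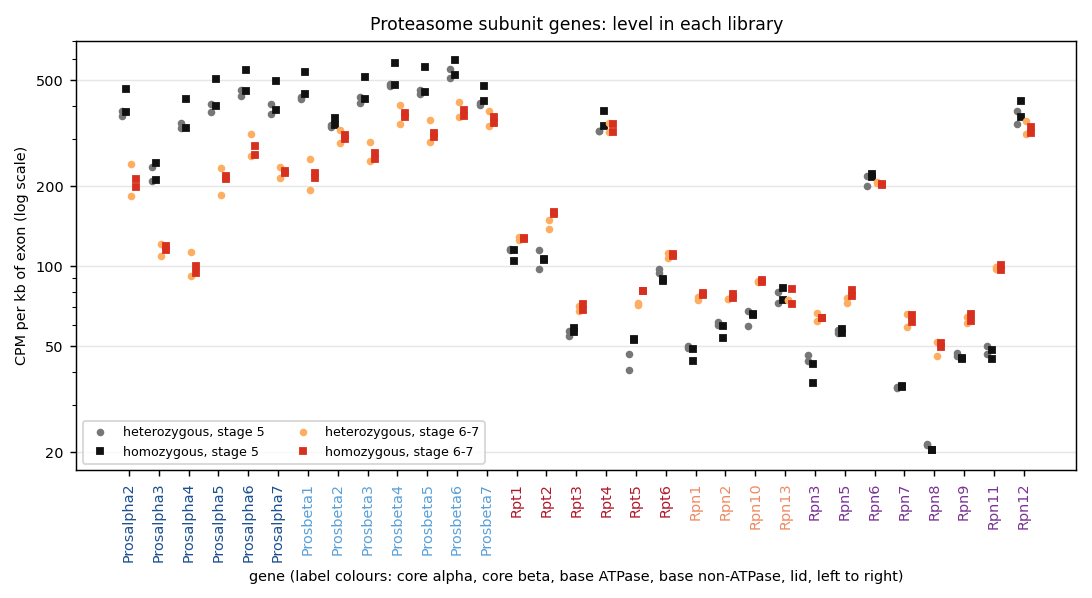
Level of the 31 broadly expressed subunit genes with counts, in CPM per kb of exon on a log scale (y axis), by gene and role (x axis). Each point is 1 library. At stage 5 (grey and black) the core genes at left sit above all regulatory genes apart from Rpt4, Rpn6 and Rpn12, and at stage 6-7 (orange and red) the gap is narrower.

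By stage 6-7 these levels had moved towards each other. The median of the core genes was 248 to 293 CPM per kb and that of the regulatory genes 75.7 to 81.7. The ratio of the regulatory median to the core median was 0.145 and 0.144 in the stage 5 heterozygotes and 0.113 and 0.141 in the stage 5 homozygotes. At stage 6-7 it was 0.259 and 0.307 in heterozygotes and 0.306 and 0.315 in homozygotes. Every stage 6-7 library thus lay above every stage 5 library, and the lowest value of each stage came from the library that stood apart in that stage. Within the core particle the levels spread out, from 3.65 to 3.94 times between highest and lowest, and within the regulatory particle they drew together, to 6.16 to 7.62 times.

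The summed CPM gave the same order in each role. The 6 measured alpha subunits summed to 2121 to 2709 CPM at stage 5 and 1045 to 1260 CPM at stage 6-7. The 7 beta subunits summed to 2954 to 3555 and then 2057 to 2407 CPM. The base ATPases went from 1092 to 1205 CPM to 1275 to 1343 CPM, the other base subunits from 535 to 594 to 735 to 773 CPM, and the lid from 1136 to 1223 to 1357 to 1399 CPM. All 5 sums therefore lay apart between the stages, the core roles down and the regulatory roles up. The core sum was 6263 CPM in the stage 5 homozygous replicate 1 against 5075 to 5308 CPM in the other stage 5 libraries, and it was highest among the stage 6-7 libraries in heterozygous replicate 1, at 3668 against 3102 to 3389 CPM. All subunit genes together held 0.688% to 0.837% of the gene counts of a library.

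**Figure D2:**
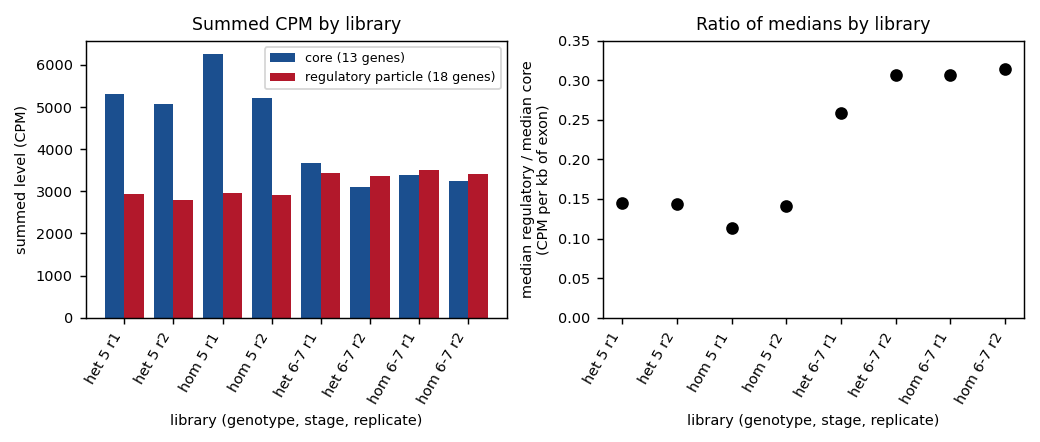
Left, summed CPM of the 13 core genes (blue) and the 18 regulatory-particle genes (red) in each library; right, the median regulatory level over the median core level per kb of exon. The core bars fall from 5075 to 6263 CPM at stage 5 to 3102 to 3668 CPM at stage 6-7, and the ratio moves from 0.113 to 0.145 up to 0.259 to 0.315.

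The comparison between stages asked which subunit RNAs changed as the blastoderm passed into the gastrula, in each genotype. In heterozygotes 11 of the 13 tested core genes fell and none rose, with a median log2 change of -0.65 and a range of -1.72 to -0.13. Of the 18 regulatory genes 12 rose and none fell, with a median of 0.41 and a range of -0.12 to 1.20. Over all 9360 tested genes, 28.4% were called higher and 26.5% lower at an adjusted p under 0.05 (edgeR quasi-likelihood test, Benjamini-Hochberg), and their median log2 change was 0.02. In homozygotes 12 of 13 core genes fell (median -0.88) and 14 of 18 regulatory genes rose (median 0.46), while 1, Rpn12, fell. There the shares over all tested genes were 31.1% higher and 29.0% lower. The genotypes share no library in these comparisons, although the model estimates 1 spread for all groups. The 11 core genes and 12 regulatory genes called in heterozygotes were all called in the same direction in homozygotes. The matching share over all tested genes is not given here, so nothing particular to the subunit genes is read from this overlap.

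Without replicate 1 of the stage 5 homozygotes, the median log2 change in homozygotes was -0.76 for core genes and 0.45 for regulatory genes. Over all tested genes it was 0.01. Without replicate 1 of the stage 6-7 heterozygotes, the medians in heterozygotes were -0.79 and 0.375, and 0.01 over all tested genes. All core genes stayed below 0 in both fits. With library totals alone as the scaling, the median of all tested genes moved to 0.17 in heterozygotes and 0.20 in homozygotes. On that scale 1 core gene of 13 had a log2 change above 0, of 0.03 in heterozygotes and 0.01 in homozygotes. There 10 and 11 core genes were called lower, against 1935 and 1987 of all 9360 tested genes. Of the 18 regulatory genes 14 were called higher in each genotype, against 3352 and 3638 of all tested genes.

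**Figure D3:**
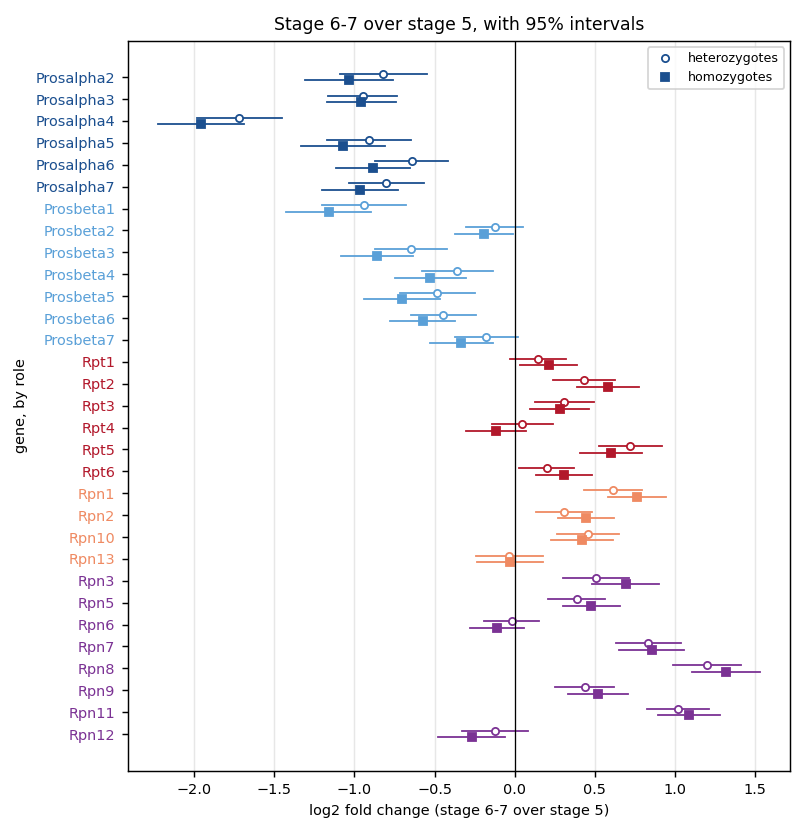
Log2 fold change of stage 6-7 over stage 5 (x axis) for the 31 tested broadly expressed subunit genes (y axis, ordered and coloured by role), with 95% intervals from edgeR; open circles are heterozygotes and filled squares homozygotes. All 13 core genes lie below 0 in both genotypes, from -1.96 to -0.13 (1 of 13 lies just above 0 with library totals alone), and the largest positive value is that of Rpn8, 1.32 in homozygotes.

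All 6 tested alpha subunits fell in both genotypes. Prosalpha4, an alpha-ring subunit encoded on the X chromosome, moved most. Its level was 406 and 389 CPM in the 2 heterozygous libraries of stage 5 and 499 and 388 CPM in the homozygous ones, and 133 and 108 CPM and then 118 and 111 CPM at stage 6-7. The stages did not overlap. The log2 change was -1.72 ± 0.12 in heterozygotes (SE; edgeR adjusted p = 9.68e-08) and -1.96 ± 0.12 in homozygotes (edgeR adjusted p = 2.97e-08). Without replicate 1 of the stage 5 homozygotes, the largest core fall in homozygotes was -1.77. The core median there was -0.76, against -0.88 with that library. In the order of levels per kb Prosalpha4 went from position 12 to position 19 of 31 in heterozygotes and from 12 to 20 in homozygotes, below all other core genes with counts.

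Prosalpha3, the alpha subunit whose tail forms part of the gate in yeast, is encoded on 2R. It stood at 230 and 204 CPM in the stage 5 heterozygotes and 238 and 205 CPM in the homozygotes, and at 118 and 107 CPM and 116 and 112 CPM at stage 6-7. Each stage 6-7 library was lower than each stage 5 library. The log2 change was -0.95 ± 0.10 in heterozygotes (edgeR adjusted p = 2.48e-06) and -0.96 ± 0.10 in homozygotes (edgeR adjusted p = 1.93e-06).

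Prosalpha5, a further alpha-ring subunit encoded on 2R, stood at 385 and 359 CPM in the stage 5 heterozygotes and at 221 and 176 CPM at stage 6-7. Its homozygous values were 479 and 378 CPM and then 206 and 201 CPM. The stages again did not overlap, and the log2 change was -0.91 ± 0.12 in heterozygotes and -1.07 ± 0.12 in homozygotes (edgeR adjusted p = 2.69e-05 and 5.36e-06). Prosalpha7, another alpha-ring subunit from 2R, stood at 398 and 366 CPM in the stage 5 heterozygotes, 486 and 376 CPM in the homozygotes, and at 209 to 229 CPM in the 4 stage 6-7 libraries. Its log2 change was -0.80 ± 0.11 in heterozygotes and -0.96 ± 0.11 in homozygotes (edgeR adjusted p = 2.78e-05 and 4.37e-06). The remaining pair of tested alpha genes, Prosalpha2 and Prosalpha6, changed by -0.82 and -0.64 in heterozygotes.

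The beta subunits fell by less, with a median log2 change of -0.45 in heterozygotes and -0.57 in homozygotes, against -0.87 and -0.998 for the alpha subunits. Single genes of the rings overlapped, with Prosbeta3 at -0.65 and Prosalpha6 at -0.64 in heterozygotes. The largest fall among the beta genes in both genotypes was that of Prosbeta1, the subunit with the caspase-like site, encoded on 2R. It stood at 369 and 362 CPM in the stage 5 heterozygotes, 459 and 377 CPM in the homozygotes, and at 216 and 165 CPM and 192 and 182 CPM at stage 6-7. The stages did not overlap, and the log2 change was -0.94 ± 0.12 in heterozygotes and -1.16 ± 0.12 in homozygotes (edgeR adjusted p = 1.94e-05 and 2.61e-06). Of the other active-site subunits, Prosbeta5 changed by -0.48 in heterozygotes and -0.70 in homozygotes and was called lower in both. Prosbeta2, with the trypsin-like site, was called in neither, at -0.13 and -0.19 (edgeR adjusted p = 0.222 and 0.0610). In homozygotes it sat near the threshold and passed with a replicate block (-0.19, edgeR adjusted p = 0.0393) and without stage 5 homozygous replicate 2 (-0.22, edgeR adjusted p = 0.0493). The 3 active-site subunits therefore did not show 1 common size of change.

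Prosbeta3 (-0.65 in heterozygotes), Prosbeta6 (-0.45) and Prosbeta4 (-0.36), which lack active sites, were called lower in both genotypes. Prosbeta7 was at -0.18 in heterozygotes (edgeR adjusted p = 0.115) and at -0.33 in homozygotes (edgeR adjusted p = 0.00598). The calls of Prosbeta4 and Prosbeta7 depended on single libraries and on the scaling. With library totals alone, Prosbeta4 in heterozygotes was at -0.21 (edgeR adjusted p = 0.0962) and Prosbeta7 in homozygotes at -0.13 (edgeR adjusted p = 0.207), neither called. Without heterozygous stage 5 replicate 1, Prosbeta4 in heterozygotes had an edgeR adjusted p of 0.0506, and without stage 6-7 heterozygous replicate 2 its log2 change was -0.25 with an edgeR adjusted p of 0.100. Prosbeta7 in homozygotes had an edgeR adjusted p of 0.0676 without stage 6-7 homozygous replicate 2. In heterozygotes it passed, at 0.0415, 0.0452 and 0.0397, without stage 6-7 heterozygous replicate 1 and without stage 5 homozygous replicate 1 or 2.

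The lid held the subunits that rose most. Rpn8 stood at 32.6 and 32.8 CPM in the stage 5 heterozygotes and 31.2 and 31.1 CPM in the homozygotes, and at 70.7 and 79.3 CPM and 79.2 and 76.0 CPM at stage 6-7. The stages were far apart and the replicates of stage 5 nearly equal. The log2 change was 1.20 ± 0.10 in heterozygotes and 1.32 ± 0.10 in homozygotes (edgeR adjusted p = 2.43e-07 and 9.70e-08), which is 2.30-fold and 2.49-fold. The gene lies on 2R and overlaps Slik on the opposite strand, and the strand setting of the counting is not given in the sources used here.

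Rpn11, the metalloprotease that cuts ubiquitin chains from the substrate, is encoded on 2L and overlaps no other annotated gene. It stood at 60.7 and 56.6 CPM in the stage 5 heterozygotes, 54.0 and 58.6 CPM in the homozygotes, and at 117 to 122 CPM in all stage 6-7 libraries. No library of one stage reached the range of the other. The log2 change was 1.02 ± 0.09 in heterozygotes and 1.08 ± 0.09 in homozygotes (edgeR adjusted p = 4.81e-07 and 2.30e-07).

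Rpn7, a scaffold subunit of the lid encoded on 3R, stood at 48.9 and 48.8 CPM in the stage 5 heterozygotes, 48.8 and 49.6 CPM in the homozygotes, and at 82.1 and 92.0 CPM and 86.3 and 91.4 CPM at stage 6-7. The stages did not overlap, and the log2 change was 0.83 ± 0.10 and 0.85 ± 0.10 (edgeR adjusted p = 5.09e-06 and 3.65e-06). It overlaps CG34376 on the opposite strand. Of the other lid scaffold subunits, Rpn3 (0.51 in heterozygotes), Rpn9 (0.44) and Rpn5 (0.39) rose in both genotypes. Rpn6 was called in neither genotype, at -0.02 and -0.11. Rpn12 was at -0.12 in heterozygotes (edgeR adjusted p = 0.303) and was called lower in homozygotes, at -0.27 (edgeR adjusted p = 0.0255). That call was lost without stage 5 homozygous replicate 1 (log2 change -0.18, edgeR adjusted p = 0.151). It was also lost without replicate 1 or 2 of the stage 6-7 homozygotes (edgeR adjusted p = 0.0637 and 0.165), and with library totals alone (-0.07, edgeR adjusted p = 0.547).

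In the base, Rpn1, the scaffold that receives shuttle proteins and is encoded on 3L, stood at 152 and 150 CPM in the stage 5 heterozygotes and 134 and 149 CPM in the homozygotes, and at 228 and 234 CPM and 241 and 238 CPM at stage 6-7. The stages did not overlap. Its log2 change was 0.61 ± 0.08 in heterozygotes and 0.76 ± 0.08 in homozygotes (edgeR adjusted p = 2.66e-05 and 3.04e-06). Rpn2, the companion scaffold, changed by 0.31 and 0.44 and was called higher in both genotypes, although without heterozygous stage 5 replicate 2 the value in heterozygotes was 0.25 with an edgeR adjusted p of 0.103. The ubiquitin receptors differed. Rpn10 rose by 0.46 in heterozygotes and 0.42 in homozygotes, while Rpn13 was at -0.03 in both and was not called.

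Rpt5, a base ATPase whose tail docks into the alpha ring in yeast, is encoded on 3R and overlaps Hrd3 on the opposite strand. It stood at 76.1 and 66.2 CPM in the stage 5 heterozygotes, 86.0 and 86.8 CPM in the homozygotes, and at 116 and 118 CPM and 131 and 131 CPM at stage 6-7. The stages were apart in each genotype, and the log2 change was 0.72 ± 0.09 in heterozygotes and 0.60 ± 0.09 in homozygotes (edgeR adjusted p = 1.26e-05 and 5.75e-05). Of the other ATPases of the ring, Rpt2 changed by 0.43 and 0.58 and Rpt3 by 0.31 and 0.28, called higher in both genotypes. Without heterozygous stage 5 replicate 2 the heterozygous calls of Rpt2 (0.29, edgeR adjusted p = 0.0511) and Rpt3 (0.24, edgeR adjusted p = 0.120) were lost, and without stage 6-7 homozygous replicate 2 Rpt3 in homozygotes had an edgeR adjusted p of 0.122. Rpt4 was called in neither genotype, at 0.05 and -0.12.

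Rpt1 and Rpt6 sat at the threshold. Rpt6 was at 0.20 in heterozygotes (edgeR adjusted p = 0.0501) and 0.31 in homozygotes (edgeR adjusted p = 0.00450). The heterozygous value passed without stage 5 homozygous replicate 1 (edgeR adjusted p = 0.0340), with the filter at 10 CPM (0.0233), with limma-voom (0.0459), with a replicate block (0.0445) and with library totals alone (log2 0.35, edgeR adjusted p = 0.00262). Without stage 6-7 homozygous replicate 2 the homozygous call was lost, at an edgeR adjusted p of 0.0542. Rpt1 was at 0.14 (edgeR adjusted p = 0.156) and 0.21 (edgeR adjusted p = 0.0396), and in heterozygotes it passed with library totals alone (0.30, edgeR adjusted p = 0.00596). Its call in homozygotes was lost without any 1 of 5 libraries. These were both stage 5 heterozygous libraries (0.0662 and 0.0735), stage 5 homozygous replicate 2 (0.130) and both stage 6-7 homozygous libraries (0.151 and 0.167). It was also lost with no low-count filter (0.0765) and with the 4 homozygous libraries alone (0.0769). The members of the ATPase ring, which has 1 copy of each Rpt protein, thus ran from no call to a 1.65-fold rise in heterozygotes.

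Across the regulatory genes, those with the lowest RNA level at stage 5 had the largest rise. Between the level per kb in the stage 5 heterozygotes and the stage change in homozygotes, Spearman's rho was -0.87 over 18 regulatory genes. With the genotypes exchanged, so that again no library enters both axes, it was -0.86. Over the 13 core genes rho was 0.30 and 0.37, and over 9187 tested genes with a length it was -0.25 both ways. These values describe genes that share libraries and depth within each axis and carry no test. The regulatory genes that were not called in either genotype, Rpt4, Rpn6 and Rpn13, stood at positions 14, 16 and 20 of 31 in the stage 5 heterozygotes, while the 3 with the largest rise, Rpn8, Rpn11 and Rpn7, stood at positions 31, 26 and 30.

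Of the 32 broadly expressed genes, 15 overlap a gene on the opposite strand and 1, Rpt1, a gene on its own strand. Among the 16 genes that overlap no other gene, 6 of 7 core genes fell and 7 of 9 regulatory genes rose in heterozygotes. In homozygotes 7 of 7 core genes fell, 7 of 9 regulatory genes rose and 1 fell. The core and regulatory genes thus went in opposite directions also where no other annotated gene overlaps.

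The genotype comparison asked whether subunit RNA depended on zen. At stage 5 none of the 34 tested subunit genes was called by edgeR, where 0.288% of all tested genes were called higher and 1.34% lower. DESeq2 and limma-voom called 0 as well. Of all 9360 tested genes, 410 higher and 745 lower had an edgeR unadjusted p under 0.05. Among the broadly expressed subunit genes 1 did, Rpt5. Its values were 76.1 and 66.2 CPM in heterozygotes and 86.0 and 86.8 CPM in homozygotes. The groups did not overlap, and the log2 difference of homozygotes over heterozygotes was 0.28 ± 0.09 (edgeR adjusted p = 0.194).

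The next smallest p-values at stage 5 were those of Rpn3 and Rpt4. Rpn3, a lid subunit, stood at 80.9 and 85.3 CPM in heterozygotes and 66.5 and 78.2 CPM in homozygotes. The lower homozygous value came from replicate 1, and the log2 difference was -0.20 ± 0.10 (edgeR adjusted p = 0.425). With replicate 2 of the stage 5 homozygotes left out, replicate 1 stood alone for that group. Rpn3 was then called lower, at -0.37, where the median over all tested genes was -0.06. Rpt4 stood at 470 and 471 CPM in heterozygotes and 560 and 491 CPM in homozygotes, and its log2 difference was 0.16 ± 0.09 (edgeR adjusted p = 0.475).

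At stage 6-7 edgeR again called 0 of the 34 subunit genes, against 0.524% of all tested genes higher and 1.25% lower. DESeq2 and limma-voom called 0. By edgeR 0 of the subunit genes had an unadjusted p under 0.05, against 327 higher and 379 lower of all 9360 tested genes. The smallest p was again that of Rpt5, with 116 and 118 CPM in heterozygotes and 131 and 131 CPM in homozygotes, and a log2 difference of 0.16 ± 0.09 (edgeR adjusted p = 0.865). Rpt2, an ATPase of the base, stood at 224 and 242 CPM in heterozygotes and 260 and 255 CPM in homozygotes, at 0.14 ± 0.09 (edgeR adjusted p = 0.962). Both genes were higher in each homozygous library than in each heterozygous one, without passing the test. Rpn5, a lid subunit, stood at 144 and 138 CPM against 155 and 147 CPM, at 0.10 ± 0.08 (edgeR adjusted p = 0.9999).

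Over the broadly expressed genes, the 95% intervals of the genotype difference reached from -0.41 to 0.48 at stage 5 and from -0.34 to 0.35 at stage 6-7. With 2 libraries a group, differences inside these bounds were not resolved. At stage 5 all 13 core genes had a log2 difference above 0, with a median of 0.16, against a median of 0.00 over all tested genes. This direction rested on replicate 1 of the homozygotes: without it, 7 of 13 were above 0 and the median was 0.00. Without replicate 2 of the homozygotes in its place, 13 of 13 were above 0 (median 0.24, against -0.06 over all tested genes). Without heterozygous replicate 2, 11 of 13 were (median 0.08, against -0.03 over all tested genes). Of the stage markers, 1 of 4 tested cellularization genes and 1 of 5 gastrulation genes were called lower in homozygotes at stage 5. These were nullo, at 10.7 and 7.78 CPM in heterozygotes and 4.83 and 3.96 CPM in homozygotes (log2 -1.07, edgeR adjusted p = 0.0287), and T48, at 34.1 and 36.8 against 21.3 and 26.2 CPM (log2 -0.57, edgeR adjusted p = 0.0255). With stage, nullo went down and T48 up in heterozygotes, from means of 9.23 to 0.268 and of 35.4 to 47.6 CPM. The other tested genes of these lists were not called. Their stage 5 means in heterozygotes and homozygotes were 2074 and 2021 CPM for slam, 199 and 172 for bnk, and 360 and 477 for halo. For sna they were 216.9 and 217.5, for twi 322 and 313, for fog 37.4 and 28.3, and for htl 142 and 120 CPM. The part of these markers in the core levels was not tested. At stage 6-7, 3 of 13 core genes were above 0 (median -0.03), but 13 of 13 were without heterozygous replicate 1 (median 0.08) and 0 of 13 without heterozygous replicate 2 (median -0.14). The core genes thus moved together from library to library within a group. In the same libraries the first principal component was also displaced, and its part in the core levels was not tested.

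**Figure D4:**
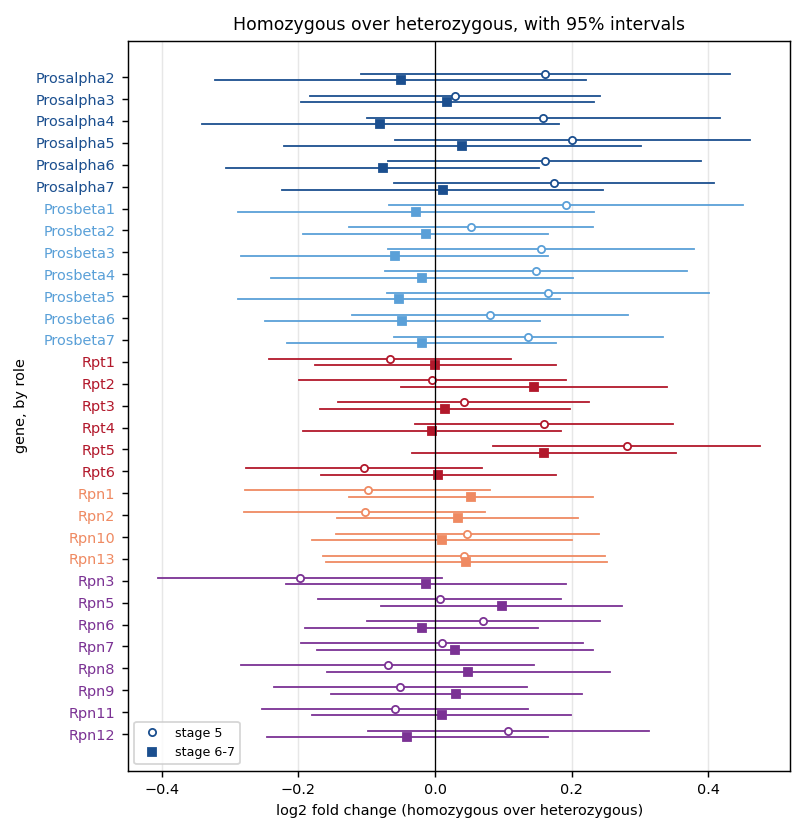
Log2 difference of homozygotes over heterozygotes (x axis) for the 31 tested broadly expressed subunit genes (y axis, by role), with 95% intervals from edgeR; open circles are stage 5 and filled squares stage 6-7. All intervals include 0 apart from that of Rpt5 at stage 5, and the 13 core circles lie right of 0, as they do not without replicate 1 of the stage 5 homozygotes (7 of 13).

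Whether the genotype difference changed between the stages was tested as an interaction. No subunit gene was called by edgeR, DESeq2 or limma-voom, where edgeR called 0.0107% of all tested genes higher and 0.0641% lower. Of all 9360 tested genes, 369 higher and 260 lower had an edgeR unadjusted p under 0.05, and 0 of the subunit genes did. The smallest p-values among the subunit genes belonged to 3 core genes. They were Prosalpha6, an alpha-ring subunit (log2 -0.24 ± 0.15, edgeR adjusted p = 0.819), Prosbeta3 (-0.21 ± 0.15, edgeR adjusted p = 0.828) and Prosbeta5 (-0.22 ± 0.15, edgeR adjusted p = 0.833). Prosalpha6 stood at 492 and 466 CPM in the stage 5 heterozygotes, 582 and 489 CPM in the homozygotes, and at 336 and 278 CPM and 303 and 279 CPM at stage 6-7. Prosbeta3 stood at 396 and 377 CPM, 471 and 390 CPM, 267 and 227 CPM, and 244 and 231 CPM in the same order of groups. Prosbeta5 stood at 521 and 508 CPM, 640 and 514 CPM, 402 and 334 CPM, and 361 and 349 CPM. In all 3 genes the highest value of each stage came from the library that stood apart in that stage. All 13 core genes had an interaction below 0 (median -0.17), but 10 of 13 did without stage 5 homozygous replicate 1 (median -0.04) and 9 of 13 without stage 6-7 heterozygous replicate 1 (median -0.04). With those libraries kept and their partners left out the values were larger. Without stage 5 homozygous replicate 2 all 13 were below 0 (median -0.30, against 0.08 over all tested genes). Without stage 6-7 heterozygous replicate 2 all 13 were as well (median -0.31, against 0.04 over all tested genes).

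Since zen[7] and the balancer are on chromosome 3, the 14 broadly expressed genes on that chromosome and the 18 elsewhere were also read apart. None was called in either set at either stage. The median log2 difference at stage 5 was 0.05 on chromosome 3 and 0.07 elsewhere, and at stage 6-7 it was 0.02 and 0.00.

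The testis-type copies were near the floor of the libraries. Of the 16 copies, 3 (Prosalpha1R, Prosalpha3T, Prosbeta5R1) were listed at 0 in every library, and a further 10 had at most 12 counts in any library. A count of 0 allows up to 3 counts by counting error alone, which is 0.0794 to 0.101 CPM in these libraries. All copies together held 0.0327% to 0.0432% of the subunit counts at stage 5 and 0.114% to 0.168% at stage 6-7. Only 3 copies passed the filter on low counts, so nothing is read from how many of them changed. The testis markers, of which 13 were counted and dj and Mst84Da listed at 0, summed to 15.1 to 19.0 CPM at stage 5 and 27.9 to 30.5 CPM at stage 6-7. Most of that was mia, a testis transcription factor, at 12.7 to 17.4 and then 24.6 to 27.3 CPM. Their part in the counts of the copies was not tested.

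Rpt3R, the copy of the base ATPase Rpt3, had 58 to 242 counts per library. It stood at 1.71 and 2.16 CPM in the stage 5 heterozygotes, 2.16 and 1.77 CPM in the homozygotes, and at 4.38 and 5.65 CPM and 4.61 and 7.10 CPM at stage 6-7. The stages did not overlap. The log2 change was 1.37 ± 0.26 in heterozygotes and 1.58 ± 0.26 in homozygotes (edgeR adjusted p = 4.17e-04 and 1.21e-04). The gene overlaps Alg12 on the opposite strand.

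Prosbeta2R2, a copy of the beta subunit with the trypsin-like site, had 20 to 94 counts. It stood at 1.25 and 0.720 CPM in the stage 5 heterozygotes, 1.15 and 0.591 CPM in the homozygotes, and at 2.45 and 2.61 CPM and 2.32 and 2.76 CPM at stage 6-7. The stages again did not overlap, and the log2 change was 1.36 ± 0.33 and 1.57 ± 0.35 (edgeR adjusted p = 0.00302 and 0.00134). Without heterozygous stage 5 replicate 2 the change in heterozygotes was 0.98, with an edgeR adjusted p of 0.0564. Rpt6R, named here although it reached 1 CPM in 1 library only, had 1 to 6 counts in the stage 5 libraries and 22 to 35 in those of stage 6-7. Since it passed the filter only through the later stage, where its counts were high, its log2 change of 2.37 and 3.26 is given with no further reading. Neither genotype comparison called any of the 3.

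**Figure D5:**
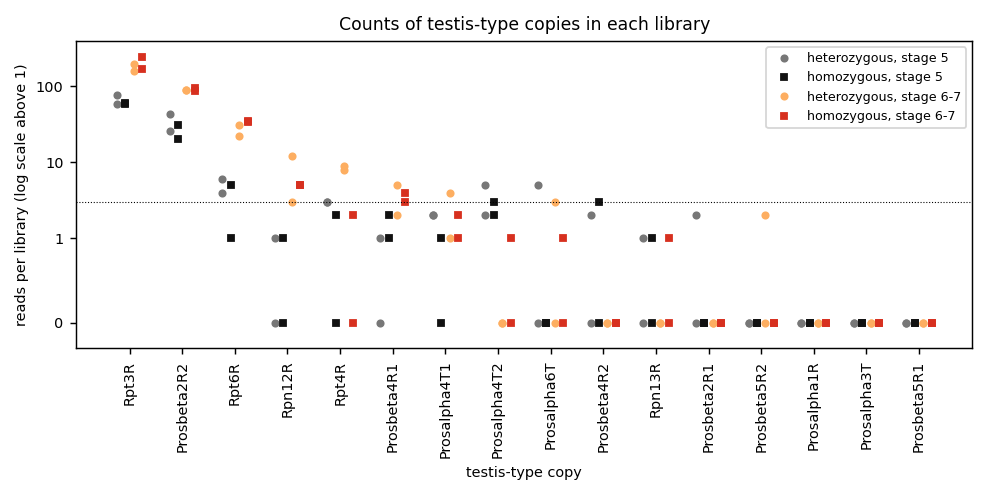
Counts of the 16 testis-type copies in each library (y axis, log scale above 1), ordered by their total; each point is 1 library, and the dotted line marks 3 counts. Rpt3R, Prosbeta2R2 and Rpt6R stand above the rest, and the other 13 copies have at most 12 counts.

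Prosalpha1, an alpha-ring subunit, and its neighbouring copy Prosalpha1R were both listed at 0 in all 8 libraries. The annotation gives both genes a coding length of 732 bases on 2R, on the same strand. Reads that aligned to more than 1 place made up 8.01% to 13.39% of a library and were not assigned to a gene, and their part in these zeros was not tested. Prosalpha1 is a required subunit of the core particle, and its level is not read from these counts.

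The factors that assemble and serve the proteasome were read from lists chosen with earlier results known. Of 11 assembly, activator and associated factors, 4 rose and 4 fell in heterozygotes (median log2 change 0.19), and 5 rose and 3 fell in homozygotes (median 0.15). Pomp, the chaperone that matures the core particle, fell from 243 ± 4.6 to 154 ± 21.6 CPM in heterozygotes, a log2 change of -0.66, and by 0.85 on the log2 scale in homozygotes (edgeR adjusted p = 1.63e-04 and 1.54e-05). CG9588, the fly counterpart of the base assembly chaperone PSMD9, rose from 10.6 ± 0.3 to 25.8 ± 1.2 CPM, a log2 change of 1.28 in heterozygotes and 1.39 in homozygotes (edgeR adjusted p = 6.36e-07 and 2.66e-07). Sem1, a small lid subunit without an Rpn symbol here, rose by 0.85 and 0.90 on the log2 scale (edgeR adjusted p = 2.63e-05 and 1.49e-05). Uch-L5, a deubiquitinase of the regulatory particle, fell from 313 ± 17.3 to 231 ± 9.0 CPM in heterozygotes (log2 -0.44, edgeR adjusted p = 6.84e-04) and by 0.68 on the log2 scale in homozygotes (edgeR adjusted p = 1.28e-05). The list thus went both ways, in shares near those of all tested genes.

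Of the 5 genes for ubiquitin and its activating enzyme, 1 rose and 0 fell in heterozygotes, and 1 rose and 1 fell in homozygotes. For this list and the next, the shares over all tested genes were 28.4% higher and 26.5% lower in heterozygotes. In homozygotes they were 31.1% and 29.0%. Uba1, the enzyme that activates ubiquitin, rose from 250 ± 5.5 to 405 ± 33.2 CPM in heterozygotes (log2 0.69, edgeR adjusted p = 3.87e-05) and by 0.83 on the log2 scale in homozygotes (edgeR adjusted p = 6.26e-06). Of 5 segregase cofactors and shuttle receptors 3 rose and 1 fell in each genotype. The cofactors p47 and Npl4 of the p97 segregase rose by 1.23 and 1.19 on the log2 scale in heterozygotes (edgeR adjusted p = 5.23e-07 and 1.44e-06), and the shuttle receptor Ubqn changed by -0.39 (edgeR adjusted p = 0.00197). The members of this list thus did not share 1 direction.

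Of the 4 genes for the transcription factors of the proteasome recovery response and their regulators, 1 rose and 2 fell in heterozygotes and 0 rose and 2 fell in homozygotes. Over all tested genes the shares were 28.4% higher and 26.5% lower in heterozygotes, and 31.1% and 29.0% in homozygotes. The factor cnc, the fly Nrf homologue, was at 0.01 and 0.18 on the log2 scale and was not called, at 62.9 ± 4.9 CPM in the stage 5 heterozygotes and 63.5 ± 2.1 CPM at stage 6-7. Pngl, the homologue of the glycanase that processes such factors in worms and mammals, fell from 34.9 ± 6.3 to 15.7 ± 0.8 CPM in heterozygotes (log2 -1.16, edgeR adjusted p = 2.01e-05). Keap1, the repressor of cnc, changed by -0.33 (edgeR adjusted p = 0.00706). No member of these lists was called between the genotypes at either stage or in the interaction by edgeR.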

How the data were processed

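The authors deposited 1 table of whole-number read counts per gene for each library, not normalized. The submitters' processing notes name STAR and HTSeq. Versions, genome build, gene models and strand setting were not given in the sources used here. The libraries were read as 100 bp pairs with 200 bp inserts, per the labels' protocols. The HTSeq summary lines (12.89% to 18.22% of a library) name no gene and were left out. Symbols, lengths and overlaps came from Ensembl 115 on BDGP6.54 by gene ID (17188 IDs matched, 280 did not).

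Counts were scaled with TMM, filtered with filterByExpr (minimum count 10) and fitted with edgeR 4.0.16 (R 4.3.3; robust glmQLFit, glmQLFTest), with a mean for each of the 4 groups. P-values were adjusted by Benjamini-Hochberg over all 9360 tested genes and called under 0.05. Of the 48 subunit genes 34 were tested. CPM use TMM-scaled totals, and levels between genes are per kb of the union of exons. The fit was tested on simulated data. The labels do not say that equal replicate numbers share parents or a day, so p-values cover only the spread between pools.

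The members and lists were chosen with earlier results of these data known. Named in full were, for each comparison, at most the 4 broadly expressed genes of smallest p called in each direction, or the 3 of smallest p where none was called, and each testis-type copy with at least 1 CPM in 2 libraries. From each other list at most 3 of smallest p per comparison were named, apart from cnc and the markers of cell types and stages. Listed symbols that matched no counted gene by that name (12) were left out or counted under the gene's other symbol. Alternatives were RLE factors, library totals, 2 other filters, DESeq2 1.42.0, limma-voom (limma 3.58.1), a replicate block, 4 libraries alone, each library left out, and coding or longest-transcript length. Promoter motifs and protein sequences were not analysed here.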

Additional observations from a re-analysis of the deposited data

How the results depend on the processing

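A library left out leaves 1 in its group, whose spread is then taken from the other groups. The counts that follow leave out the testis-type copies. Where both libraries of each compared group were kept, 12 to 14 regulatory genes rose (12 in the fit reported) and 10 to 11 core genes fell (11) in heterozygotes. In homozygotes 13 to 14 regulatory genes rose (14) and 11 to 13 core genes fell (12). In the fit reported, 28.4% and 31.1% of all tested genes rose, and 26.5% and 29.0% fell. With a single library left out, the core median ran from -0.79 to -0.53 in heterozygotes and from -0.99 to -0.76 in homozygotes. The regulatory median ran from 0.31 to 0.43 and from 0.43 to 0.50. Between genotypes and in the interaction the counts were 0 in each alternative, save that leaving out single libraries gave 0 to 1 called lower at stage 5 (Rpn3, without stage 5 homozygous replicate 2). A replicate block gave 13 regulatory genes higher and 11 core genes lower in heterozygotes, and 14 and 13 in homozygotes. Within stage these were 12, 11, 14 and 12. Deviations of equally numbered libraries correlated at -0.062 to 0.043 between groups, which cannot tell whether equal numbers share parents or a day. Over all tested genes at stage 5, the genotype calls by edgeR were 27 higher and 125 lower in the fit reported. With a replicate block they were 39 and 210. The regulatory over core ratio in the stage 5 heterozygotes was 0.145 with exons, 0.130 with coding length and 0.140 with the longest transcript. In the stage 6-7 homozygotes it was 0.311, 0.294 and 0.320.

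The results named in full were mostly picked for small p in these data, so their stability does not measure that of the other subunit genes. Stage calls that changed outside that choice, such as those of Rpt1, Rpt6 and Prosbeta4, are given above with those genes. Of 580 alternative values for the results named in full, 561 kept direction and call. The 17 that changed sign were uncalled genotype values of Rpt3R and Prosbeta2R2, whose counts are low. For Rpt3R at stage 5 these were -0.00495 with RLE factors, -0.0334 with library totals and -0.00272 with DESeq2. Leaving out single libraries gave Rpt3R -0.14 to 0.15 at stage 5, -0.12 to 0.50 at stage 6-7 and -0.13 to 0.49 in the interaction. For Prosbeta2R2 at stage 6-7 they were -0.00279 with limma-voom and -0.00784 with the 4 libraries alone. Leaving out single libraries gave Prosbeta2R2 -0.73 to 0.24 at stage 5, -0.12 to 0.13 at stage 6-7 and -0.24 to 0.74 in the interaction. The cause was not tested.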

Other observations

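Over all tested genes, edgeR called 28.4% higher and 26.5% lower with stage in heterozygotes, and 31.1% and 29.0% in homozygotes. Of 8 tested ubiquitin-conjugating enzymes, 1 rose and 4 fell with stage in heterozygotes (median log2 change -0.19), and 1 rose and 6 fell in homozygotes (median -0.35). The riser was vih, the enzyme of mitotic cyclin destruction, from 71.4 ± 0.9 to 133 ± 5.6 CPM in heterozygotes (log2 0.89, edgeR adjusted p = 2.41e-06; mean ± SD, n = 2). Ubc6, the homologue of yeast Rad6, fell from 153 ± 12.3 to 92.3 ± 2.6 CPM (log2 -0.73, edgeR adjusted p = 1.61e-05), and Ubc4 from 243 ± 2.1 to 148 ± 14.0 CPM (log2 -0.71, edgeR adjusted p = 4.59e-05).

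Of 12 subunits and adaptors of the SCF and APC/C ubiquitin ligases, 2 rose and 3 fell in heterozygotes and 3 rose and 2 fell in homozygotes. The shares over all tested genes were 28.4% higher and 26.5% lower in heterozygotes, and 31.1% and 29.0% in homozygotes. The APC/C subunit ida rose from 12.7 ± 0.2 to 28.7 ± 2.9 CPM in heterozygotes (log2 1.18, edgeR adjusted p = 1.47e-06). Its activator fzr rose from 49.1 ± 8.5 to 87.1 ± 1.1 CPM (log2 0.83, edgeR adjusted p = 8.50e-05). Cul1, the cullin of SCF ligases, fell from 1123 ± 16.0 to 659 ± 12.4 CPM (log2 -0.77, edgeR adjusted p = 1.81e-06).

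Among the testis-type copies below the filter, Rpn12R had 2 counts summed over the stage 5 libraries and 25 over those of stage 6-7, and Prosalpha4T2 had 12 and 1.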
